A study of Mus musculus with 2 samples.

Results

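The 9 genes described here are a set expressed by microglia, the resident macrophages of the brain: the complement chains C1qa, C1qb and C1qc, the surface receptors Csf1r, Cx3cr1 and P2ry12, the signalling adaptor Tyrobp, and the lysosomal genes Ctss and Cd68. They were taken by name from a list drawn up with earlier results of these data known, and all 9 were found among the 43346 genes with an Ensembl ID in the deposited tables. The study sequenced RNA from pieces of cerebellar granule layer that were cut from mouse sections by laser capture, 1 library from each piece. Per the labels, the tissue came from adult male wild-type mice aged 8 months, given as strain B6NCrl in one field and C57Bl6 in another, and each library started from 18000 square microns, entered as 50 cells, with no treatment named. Both libraries form 1 group, the granule layer (n = 2 areas), so the design holds no contrast between conditions. The areas are numbered as biological replicates 1 and 2 under the same donor label, and the labels do not say if this means 1 animal or 2. The SD given below is therefore the spread between these areas, which may be technical.

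Microglia enter the brain from the yolk sac early in development and stay there as a self-renewing population. Csf1r, a receptor tyrosine kinase, is required for their survival and is activated by the ligands Csf1 and Il34. C1q, made in the brain mainly by microglia, is the recognition protein of the classical complement pathway and tags synapses and debris for uptake. P2ry12 senses ADP released by neighbouring cells, and Cx3cr1 binds fractalkine (Cx3cl1), which neurons display on their surface. An area cut by laser holds every cell that lies within it, so these genes were measured in a mixture of mostly granule neurons with glia, vessel cells and blood.

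The libraries held 20532709 expected counts in replicate 1 and 19939370 in replicate 2, of which 19962271 and 19261911 belonged to annotated genes. Where a gene has no counts, the upper limit is 3 counts, which is a CPM (counts scaled to a common total of gene counts) of 0.150 in replicate 1 and 0.156 in replicate 2. All 15 of a list of granule neuron markers were detected, with a median TPM (a level per length, scaled to the same total in each library) of 107 and 101, which matches the labelled tissue. Detected here means that both libraries reached a TPM of 1 with 5 or more expected counts. Blood differed between the libraries: the 4 adult globin genes summed to a TPM of 5036 in replicate 1 and 388 in replicate 2.

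The microglial genes were present at low to middling levels. Detection was reached by 8 of the 9, where 50.4% of 21474 protein-coding genes and 28.9% of all genes were detected. The exception was Cx3cr1, with a TPM of 0.29 in replicate 1 and 0.99 in replicate 2. Together the 9 genes held 1979 counts in replicate 1 and 1539 in replicate 2, a CPM of 99.1 and 79.9. Their TPM summed to 107 and 84.2 (95.4 ± 15.8, SD, n = 2). The median of the 9 was a TPM of 4.28, below the median of 14.3 for the 10817 detected protein-coding genes. That comparison leaves out undetected genes, while the 9 include Cx3cr1. Among all 21474 protein-coding genes ranked by mean TPM, P2ry12, the middle gene of the 9, stood at 8662. In a captured area, fewer microglia and less RNA per microglial cell cannot be told apart.

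Of other genes that define microglia, Aif1, which encodes the calcium-binding protein Iba1, had a TPM of 6.79 in replicate 1 and 9.75 in replicate 2, and the receptor Gpr34 had 3.54 and 4.30. Both lay within the range of the 9 genes. Another 3 defining markers were below the detection threshold. The membrane protein gene Tmem119 had a TPM of 0.90 and 0.20, the Fc receptor-like gene Fcrls 0.72 and 0.77, and the transcription factor gene Sall1 0.24 and 0.61.

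**Figure D1:**
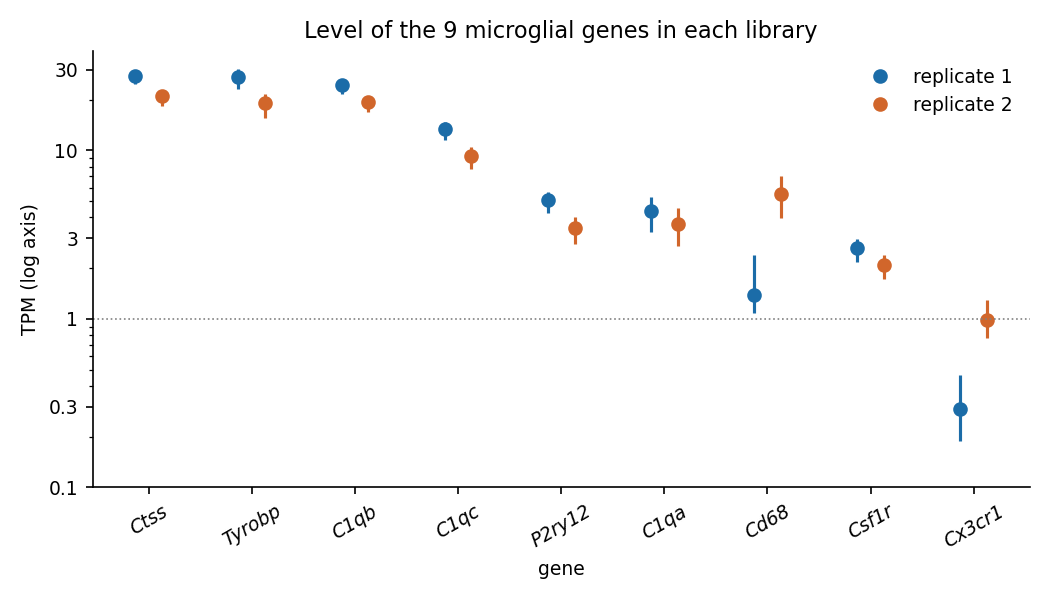
TPM (log axis) of each of the 9 genes in replicate 1 and replicate 2, with the deposited interval on TPM as a vertical bar and the detection threshold of 1 as a dotted line. Genes run from the highest mean, Ctss, to the lowest, Cx3cr1, and the points for Cd68 and Cx3cr1 are higher in replicate 2 while the others are higher in replicate 1.

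The 3 C1q chains assemble into 1 protein, and their genes lie side by side on the minus strand of chromosome 4 (GRCm38, positions 136880129 to 136898803, a span of 18.7 kb). No other annotated gene lies within the span, and 3.62 kb separate C1qb from C1qc and 2.85 kb separate C1qc from C1qa. C1qb (ENSMUSG00000036905.8) had a TPM of 24.4 in replicate 1 and 19.4 in replicate 2, from 414 and 320 counts. C1qc (ENSMUSG00000036896.5) had 13.4 and 9.24, from 253 and 170 counts. C1qa (ENSMUSG00000036887.5) had 4.34 and 3.64, from 70 and 57 counts. All 3 chains were higher in replicate 1, and their levels differed widely for genes whose products join in equal numbers. Mean levels were 21.9 ± 3.54 for C1qb, 11.3 ± 2.92 for C1qc and 3.99 ± 0.495 for C1qa (TPM, SD, n = 2).

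The order of the chains was the same in both areas. The level of C1qb was 5.63 times that of C1qa in replicate 1 and 5.34 times in replicate 2 (5.48 ± 0.208). Against C1qc, C1qb was 1.83 and 2.10 times as high (1.96 ± 0.194), and C1qc was 3.08 and 2.54 times as high as C1qa (2.81 ± 0.383). No exon of another annotated gene overlaps the 3 genes, and the posterior SD that the authors deposited for their counts, a measure of reads that could belong to a similar gene, was 0 in both libraries. C1qa and C1qb have 1 annotated transcript each, and all C1qc reads were assigned to C1qc-201.

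The promoters of C1qb and C1qc are shown because these neighbours were both higher in replicate 1, and that of Cd68 because it is a microglial gene that was higher in replicate 2. Each runs from 250 bases before the transcription start to 50 after it, read 5′ to 3′ on the gene's strand, from RefSeq on GRCm38.p6. Capitals mark GAGGAA, the core of the site bound by the myeloid transcription factor PU.1, or its reverse complement TTCCTC.
C1qb, chr4:136886151-136886450, minus strand: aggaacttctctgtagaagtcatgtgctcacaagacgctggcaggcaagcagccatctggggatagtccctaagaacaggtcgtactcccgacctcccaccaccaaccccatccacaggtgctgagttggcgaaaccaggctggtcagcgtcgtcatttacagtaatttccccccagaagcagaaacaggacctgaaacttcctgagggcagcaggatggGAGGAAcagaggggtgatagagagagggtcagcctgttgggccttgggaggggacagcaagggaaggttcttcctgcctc
C1qc, chr4:136892865-136893164, minus strand: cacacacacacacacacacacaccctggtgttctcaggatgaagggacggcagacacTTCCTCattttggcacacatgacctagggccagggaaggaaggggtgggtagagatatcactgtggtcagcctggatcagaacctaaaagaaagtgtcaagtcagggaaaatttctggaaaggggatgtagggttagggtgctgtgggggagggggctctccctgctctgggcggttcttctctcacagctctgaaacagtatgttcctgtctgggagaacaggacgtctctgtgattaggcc
Cd68, chr11:69666121-69666420, minus strand: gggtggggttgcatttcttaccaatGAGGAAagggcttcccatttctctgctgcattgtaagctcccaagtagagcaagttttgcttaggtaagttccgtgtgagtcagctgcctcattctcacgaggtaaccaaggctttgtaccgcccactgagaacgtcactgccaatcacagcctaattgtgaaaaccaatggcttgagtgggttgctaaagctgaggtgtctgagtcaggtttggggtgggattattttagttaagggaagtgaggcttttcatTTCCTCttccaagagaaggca
Promoters of 6 of the 9 genes were searched (C1qb, C1qc, Cx3cr1, P2ry12, Ctss and Cd68). Those of C1qa, Csf1r and Tyrobp were not. Either strand of the motif was found in 4 of the 6: at 1 place in C1qb and in C1qc, at 2 places in Ctss and in Cd68, and at none in P2ry12 or Cx3cr1. Among 32851 promoters of the same 300-base length, 28.3% held it. A match is a run of 6 letters and not a measured binding site, and it was found in genes higher in replicate 1 and in the gene Cd68, higher in replicate 2.

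Among the surface receptors, P2ry12 had the highest level. P2ry12 (ENSMUSG00000036353.9, chromosome 3, positions 59216272 to 59262871, minus strand) had a TPM of 5.08 in replicate 1 and 3.48 in replicate 2 (4.28 ± 1.13, SD, n = 2), from 177 and 118 counts. The deposited intervals, 4.23 to 5.69 and 2.78 to 4.01, did not overlap. Of its coding transcripts, P2ry12-202 held an estimated 86.1% and 85.7% of the gene and P2ry12-201 the rest. The split is loosely determined: P2ry12-201 had 27.2 and 18.5 counts with a posterior SD of 17.7 and 16.5. The gene shares 9 of its 2546 exonic bases with Med12l on the opposite strand, which had a TPM of 6.31 and 4.83.

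Csf1r (ENSMUSG00000024621.11, chromosome 18) had a TPM of 2.62 in replicate 1 and 2.09 in replicate 2 (2.36 ± 0.375, SD, n = 2), from 207 and 160 counts, with intervals of 2.18 to 2.96 and 1.73 to 2.40 that overlapped. Its reads were all assigned to Csf1r-202. Csf1r was the 1 gene of the 9 with a posterior SD above 0, at 7.01 and 4.82 counts. Its exons share 873 of 5774 bases with Hmgxb3 on the opposite strand, which had a TPM of 1.38 and 1.60. Whether counting used strand is not stated in the labels or headers, so reads from the shared bases cannot be assigned to Csf1r or Hmgxb3 with certainty.

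Cx3cr1 (ENSMUSG00000052336.6, chromosome 9, positions 119901616 to 120069879, minus strand) was the lowest of the 9. Its TPM was 0.29 in replicate 1 and 0.99 in replicate 2 (0.640 ± 0.495, SD, n = 2), from 18 and 60 counts. The intervals, 0.188 to 0.463 and 0.773 to 1.29, lay apart, and CPM was 3.45-fold higher in replicate 2 (95% exact binomial interval 2.01 to 6.22, counting error only). All of its reads were assigned to Cx3cr1-201. An antisense gene, Gm33858, shares 78 of the 4505 exonic bases and has no row of its own in the deposited tables.

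Ctss and Tyrobp stood with C1qb at the top of the 9 genes. Ctss (ENSMUSG00000038642.6, chromosome 3, positions 95526786 to 95556403, plus strand) encodes cathepsin S, a cysteine protease of the lysosome and of antigen processing, and had a TPM of 27.7 in replicate 1 and 20.9 in replicate 2 (24.3 ± 4.78, SD, n = 2), from 595 and 437 counts. Its transcript Ctss-202 held an estimated 93.8% and 96.6% of the gene. Tyrobp (ENSMUSG00000030579.9, chromosome 7, positions 30413760 to 30417585, plus strand), also called DAP12, carries the activation motif that receptors such as Trem2 lack. It had a TPM of 27.4 and 19.0 (23.2 ± 5.93, SD, n = 2), from 218 and 147 counts on a transcript of 564 bases. Both genes were higher in replicate 1, and for each the deposited intervals of the libraries did not overlap.

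Cd68 (ENSMUSG00000018774.9, chromosome 11, positions 69664213 to 69666153, minus strand), a glycoprotein of lysosomal membranes used as a macrophage marker, went the other way. Its TPM was 1.39 in replicate 1 and 5.47 in replicate 2 (3.43 ± 2.89, SD, n = 2), from 27 and 70 counts. By TPM the level was 3.94-fold higher in replicate 2, and by CPM 2.69-fold (95% exact binomial interval 1.70 to 4.36). The ratios differ by the effective length that enters TPM, 1131 bases in replicate 1 and 768 in replicate 2. In replicate 1 all 27 counts went to Cd68-201, the full-length coding transcript of 1230 bases. In replicate 2, 42.5 counts went to Cd68-201 and 27.5 to Cd68-203, a processed transcript of 612 bases, so that Cd68-203 held 58.7% of the gene's TPM and the gene's mean transcript length was 867 bases.

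Cd68-203 leaves out exon 2, 434 bases at positions 69665503 to 69665936, a length 2 bases over a multiple of 3. Exon 2 is only part of the difference between 1230 and 612 bases, so Cd68-203 is also shorter elsewhere. The junctions that tell the transcripts apart are shown with the last 40 bases of exon 1 in lower case and the first 40 bases of the next exon in capitals, from GRCm38 on the minus strand.
Cd68-201: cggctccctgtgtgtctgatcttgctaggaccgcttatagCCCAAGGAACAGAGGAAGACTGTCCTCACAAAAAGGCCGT
Cd68-203: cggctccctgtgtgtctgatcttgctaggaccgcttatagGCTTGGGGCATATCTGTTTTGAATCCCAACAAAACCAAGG
Cd68-201 alone had a TPM of 1.39 in replicate 1 and 2.26 in replicate 2, with intervals of 0.623 to 1.74 and 1.24 to 3.11 that overlapped. Cd68-203 had 0 and 3.21, with intervals up to 0.805 and from 1.18 to 4.84 that did not. Transcript shares are estimates: the posterior SD of the Cd68-203 count was 1.69 in replicate 1 and 6.54 in replicate 2, and the tables hold no junction reads.

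**Figure D2:**
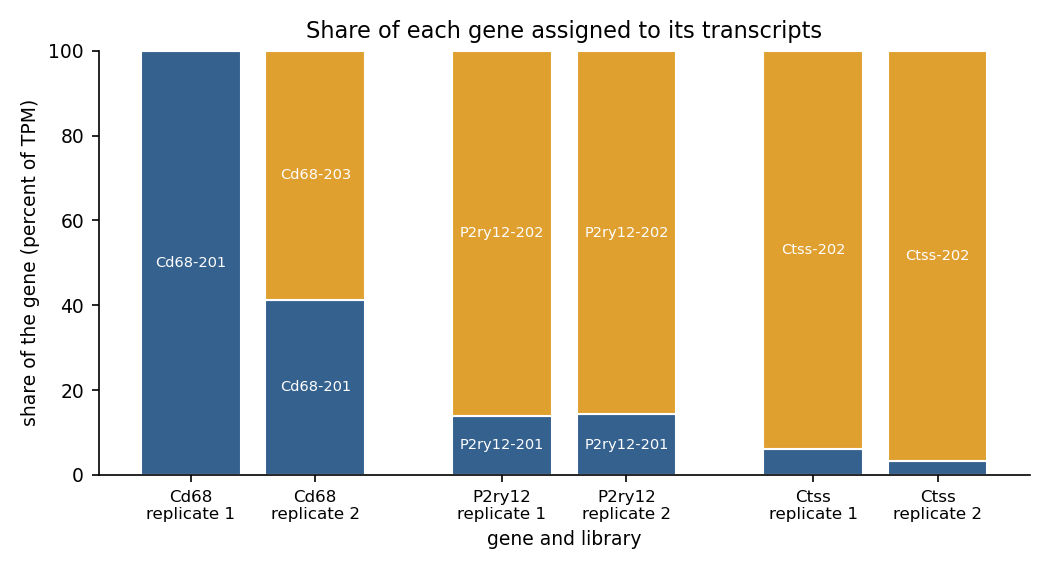
Share of each gene's TPM (percent) assigned to its transcripts in each library, for the 3 genes whose reads were split. Cd68-203 holds 58.7% of Cd68 in replicate 2 and none in replicate 1, while the estimated splits of P2ry12 and Ctss are close between libraries. All shares are estimates, and their error is not drawn.

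Of the 16 transcripts of the 9 genes in the tables, 4 had no counts in either library. The 6 genes with more than 1 transcript were led by a coding transcript in both libraries, except Cd68 in replicate 2. P2ry12, Ctss and Cd68 were the genes with reads on more than 1 transcript.

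By mean TPM the order was Ctss, Tyrobp, C1qb, C1qc, P2ry12, C1qa, Cd68, Csf1r and Cx3cr1. The values of Ctss, Tyrobp and C1qb overlapped from gene to gene, so these 3 cannot be ranked. C1qb lay above C1qc and C1qc above P2ry12 in every library. From P2ry12 through C1qa and Cd68 to Csf1r, neighbours overlapped. Csf1r lay above Cx3cr1 in both libraries. Among 21474 protein-coding genes ranked by mean TPM, Ctss stood at 3943 and Cx3cr1 at 11892.

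Between the areas, 7 of the 9 genes were higher in replicate 1 by 1.19 to 1.46-fold (TPM), and Cx3cr1 and Cd68 were higher in replicate 2. By any amount, 51.4% of 16636 tested genes (a summed count of at least 10) were higher in replicate 1, and 53.3% of those with a mean TPM from 1 to 50. Each gene's counts were compared by a two-sided exact binomial test, with the expected share set by the gene totals of the libraries and Benjamini-Hochberg adjustment over all tested genes at 0.05. The test bears on these 2 libraries and not on conditions, and it treats each read as independent. Of the 9 genes, 7 differed beyond counting error, 5 higher in replicate 1 and 2 higher in replicate 2. Among all tested genes 47.6% did so, 24.0% higher in replicate 1 and 23.7% in replicate 2, and among those with a mean TPM from 1 to 50 the shares were 45.8%, 24.6% and 21.2%.

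Ctss gave the lowest adjusted p of the genes higher in replicate 1 (exact binomial, 7.91e-05). C1qc followed (exact binomial, adjusted p = 0.000991), then Tyrobp (0.00267), P2ry12 (0.0059) and C1qb (0.00873). On the log2(TPM + 1) scale, which understates the change of low genes, these 5 differed by -0.32 to -0.51 (replicate 2 minus replicate 1). C1qa, at -0.20, and Csf1r, at -0.23, lay the same way but did not pass (exact binomial, adjusted p = 0.487 and 0.0718). Cx3cr1 was higher in replicate 2 by 0.63 (exact binomial, adjusted p = 4.79e-06) and Cd68 by 1.44 (adjusted p = 3.35e-05). Smart-seq amplifies before sequencing, so reads are not independent molecules. With all counts divided by 10, 0 of the 9 genes passed the exact binomial test and 0 had an unadjusted p under 0.05 (lowest p = 0.171), while 0.703% of all tested genes passed.

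**Figure D3:**
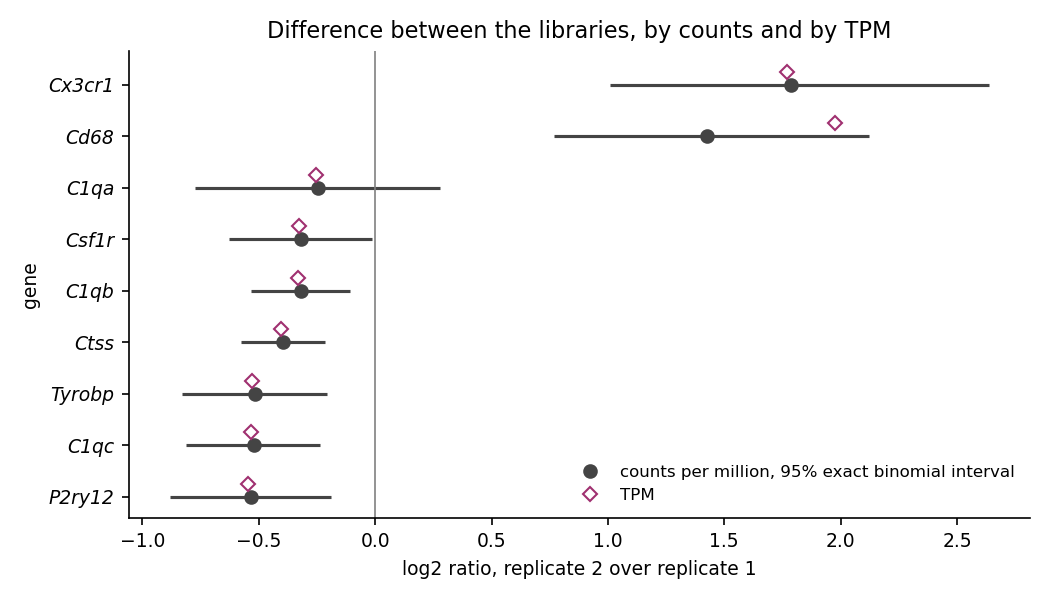
Log2 ratio of replicate 2 over replicate 1 for each gene, from CPM (filled circles, with 95% exact binomial intervals that cover counting error only) and from TPM (open diamonds). Cx3cr1 and Cd68 lie to the right of 0 and the other 7 to the left, the interval of C1qa crosses 0, and for Cd68 the TPM ratio lies well to the right of the count ratio.

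The size of the difference was small for most of the genes. At least 1.5-fold apart on the log2(TPM + 1) scale were 2 of the 9, Cx3cr1 and Cd68, both higher in replicate 2, where 13.1% of tested genes were that far apart, 7.30% higher in replicate 1 and 5.82% in replicate 2. Among tested genes with a mean TPM from 1 to 50, 13.9% were that far apart, 7.81% higher in replicate 1 and 6.12% in replicate 2. For Cx3cr1, a low gene, the call depended on the scale: its log2 difference was 0.56 with FPKM in place of TPM and 0.18 with a pseudocount of 5, where Cd68 alone stayed past that fold. With a pseudocount of 0.1 it was 1.48 and with CPM under TMM or median-of-ratios scaling 1.11, and the interval of its CPM ratio given above lay wholly past 1.5-fold. The median difference of the 9 genes was -0.32 against -0.01 for all tested genes and -0.03 for those with a mean TPM from 1 to 50. Summed over the 9 genes, CPM differed by -0.31 on the log2 scale (95% exact binomial interval -0.41 to -0.21). That interval covers counting error only, with reads taken as independent, and does not measure the spread between areas. Within the sum, Cx3cr1 and Cd68 lay the other way.

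Markers of other cells also differed between the areas. Beside each count, here and for the lists below, stand the shares of all tested genes: 24.0% higher in replicate 1 and 23.7% in replicate 2. The calls take reads as independent, and with all counts divided by 10 only 0.703% of all tested genes passed. Of 10 endothelial markers, 6 were higher in replicate 1 beyond counting error and 0 in replicate 2 (exact binomial, adjusted), with a summed TPM of 252 and 200. None of the 10 was at 0, and Cldn5, a tight junction gene, had a TPM of 5.10 and 3.10. Of 7 tested red blood cell genes, 6 were higher in replicate 1, with a summed TPM over all 8 of 5112 and 449. Oligodendrocyte markers lay the other way, 9 of 10 higher in replicate 2, and summed to a TPM of 770 and 1028. Of 10 mural cell markers, 2 were higher in replicate 1 and 6 in replicate 2. The list went both ways: the smooth muscle gene Acta2 had 0 and 178 counts, while Rgs5, its highest gene, had 1899 and 1324. Of 10 tested astrocyte and Bergmann glia markers, 4 were higher in replicate 1 and 0 in replicate 2, and all 11 summed to a TPM of 709 and 675. Of the 15 granule neuron markers, 8 were higher in replicate 2 and 2 in replicate 1, and the list summed to a TPM of 3163 and 3440. The part of these differences in the values of the 9 genes was not tested. With totals taken without globin and mitochondrial genes, the median difference of the 9 was -0.33 and the same number, 7, differed beyond counting error. That step scales the libraries nearly alike (by 1.17 and 1.16), so it could hardly move these values. It does not bear on the mixture of cells in the areas.

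Border-associated macrophages, which sit around vessels and in the meninges, share Csf1r, Cx3cr1, Tyrobp, Cd68 and the C1q genes with microglia. Of 10 of their markers, 1 was detected, and the list summed to a TPM of 5.58 in replicate 1 and 10.5 in replicate 2. The lectin gene Clec10a had a TPM of 3.96 and 4.70, the chemokine gene Pf4 0.24 and 1.73, and the haemoglobin scavenger receptor gene Cd163 0.88 and 0.86. Of the 6 tested, 3 were higher in replicate 2 beyond counting error and 0 in replicate 1 (exact binomial, adjusted), where 23.7% and 24.0% of all tested genes were. The 3 rest on few reads: Pf4 had 2 and 14 counts, Ms4a7 0 and 15, and Cd209f 0 and 11. Clec10a, with 50.3 and 63.8 counts, and Cd163, with 65 and 62, did not pass. Lyve1 had no counts in either library, and Mrc1 had 0 and 4. Their part in the higher Cd68 and Cx3cr1 of replicate 2 was not tested.

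Of 16 blood leukocyte markers, 10 had no counts in either library, among them S100a8, S100a9 and Ccr2. Lyz2, a lysozyme that microglia can also express, was the 1 detected, with a TPM of 2.50 and 2.16. Nkg7, a gene of cytotoxic lymphocytes, had 0.22 and 0.77 and the T cell gene Cd3e 0.26 and 0.04. Cd79a, of B cells, had 2 and 0 counts, and Ly6c2, of monocytes, 0 and 2.60. The list summed to a TPM of 3.09 and 3.26, so its sum was low in the area with much globin as in the other.

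**Figure D4:**
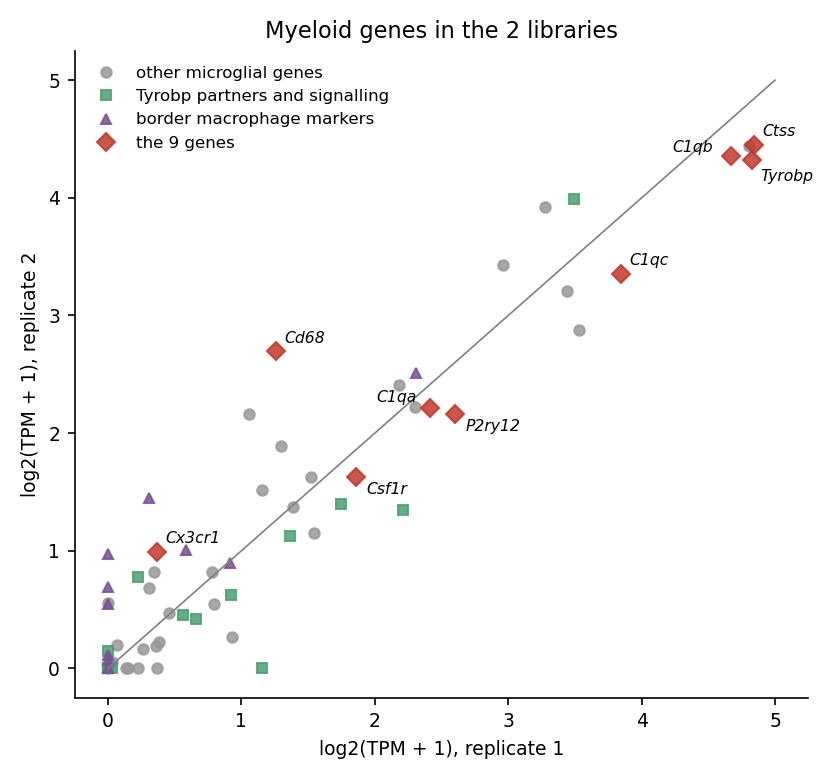
Log2(TPM + 1) in replicate 1 (horizontal) against replicate 2 (vertical) for the 9 genes and for the lists of other microglial genes, Tyrobp partners and border macrophage markers, with a line of equal levels. Cd68 and Cx3cr1 lie above the line and the other 7 named genes below it, while the other microglial genes lie on both sides.

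The ligands of the receptors were all detected at low levels. Cx3cl1, the ligand of Cx3cr1, had a TPM of 2.74 in replicate 1 and 2.30 in replicate 2 (2.52 ± 0.311, SD, n = 2). For Csf1r, the ligand Csf1 had 1.76 and 1.79 (1.78 ± 0.0212), and Il34 had 1.45 and 2.90 (2.18 ± 1.03). Il34 was the 1 ligand beyond counting error, with 28 and 57 counts (exact binomial, adjusted p = 0.00335). Cx3cl1 was higher than its receptor in both libraries, and Csf1r lay above Csf1 in both while its values overlapped those of Il34.

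Most other complement genes were not detected. Of 28 other complement genes found, 8 were detected, near the 28.9% of all genes and below the 50.4% of protein-coding genes that were. Of all 43346 genes, 20800 had a summed count of at least 1. No counts in either library were found for 8 of the complement genes: C1rb, C1s2, C3, Cfd, Cfi, Itgax, Masp1 and Vsig4. C3, the central component on which all activation routes converge, is among these, and so are the alternative pathway protease Cfd and the C3b-cleaving protease Cfi. The 3 highest levels belonged to regulators. Clu, clusterin, which blocks assembly of the membrane attack complex, had a TPM of 207 in replicate 1 and 229 in replicate 2. Cd59a, which blocks the last step of that assembly, had 23.7 and 33.1, and Cr1l, the mouse regulator also called Crry, had 25.6 and 26.8. The files do not say which cells made these transcripts.

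Of the 12 complement genes tested, 3 were higher in replicate 1 and 4 in replicate 2 beyond counting error (exact binomial, adjusted). Values of the next genes were seen before they were named. Cfp, properdin, which stabilises the alternative pathway convertase, had a TPM of 9.18 and 4.67, and Serping1, the C1 inhibitor, had 3.95 and 7.97. C1ra, a protease that C1q binds, had 0 and 34 counts. C4b had 41 and 0 counts and its near-identical copy C4a had 0 and 9, so which of the C4 genes was read is uncertain.

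Tyrobp was far above the receptors that signal through it. Of 15 partners and downstream genes, 4 were detected, and the list summed to a TPM of 21.2 in replicate 1 and 21.4 in replicate 2, close to Tyrobp alone. Fcer1g, the sister adaptor, had 10.3 and 14.9, the lectin Siglech 3.62 and 1.54, and the lipid receptor Trem2 2.36 and 1.64. Trem2 had 48 and 27 counts, higher in replicate 1 as Tyrobp was, and did not pass the test (exact binomial, adjusted p = 0.0567). Fcer1g was higher in replicate 2 (exact binomial, adjusted p = 0.00888) while Siglech was higher in replicate 1 (adjusted p = 0.00045). Of the 8 tested, 2 were higher in replicate 1 and 1 in replicate 2 beyond counting error. Btk, Sirpb1a, Trem1 and Trem3 had no counts in either library.

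Other purinergic genes, those that sense or break down extracellular nucleotides, were mostly low. Of 10, 3 were detected, and 2 of 7 tested were higher in each replicate beyond counting error (exact binomial, adjusted). Gnai2, a G protein subunit through which P2ry12 signals, had a TPM of 23.0 and 25.8. The ATP-gated channel gene P2rx4 had 15.1 and 18.4, and P2ry14, a receptor for UDP sugars that lies near P2ry12, had 6.46 and 8.07. P2ry14 was above P2ry12 in each library and lay the other way between the areas (exact binomial, adjusted p = 0.0452).

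Cathepsins and their inhibitors were common in the tissue. Of 16, 12 were detected, and 5 of 15 tested were higher in replicate 1 and 4 in replicate 2 (exact binomial, adjusted). The inhibitor gene Cst3, cystatin C, had a TPM of 974 and 972, its relative Cstb 315 and 334, and the protease gene Ctsb 131 and 129. Ctss, at 27.7 and 20.9, lay below Ctsb in both libraries. Of 8 other lysosomal membrane genes all were detected, 1 higher in replicate 1 and 4 in replicate 2. Cd63 had a TPM of 102 and 105, Lamp1 71.5 and 71.8, and Laptm4a 49.6 and 56.4, each above Cd68 in both libraries.

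The remaining microglial genes did not lean to 1 area. Of 30, 13 were detected and 23 tested, with 5 higher in replicate 1 and 7 in replicate 2 beyond counting error (exact binomial, adjusted), and the list summed to a TPM of 84.2 and 84.3. Its median difference was 0.02 on the log2(TPM + 1) scale, beside -0.32 for the 9 genes. Lyn, a Src-family kinase also present in other cells, was higher in replicate 2, with a TPM of 8.67 and 14.1 (exact binomial, adjusted p = 4.13e-06), and Ly86, a partner of a Toll-like receptor relative, had 9.88 and 8.22 and did not pass (adjusted p = 0.23). Tmem119 had 33 and 7 counts, higher in replicate 1, and Sall1 had 21 and 52, higher in replicate 2 (exact binomial, adjusted p = 0.000221 and 0.000621). Irf8, a transcription factor of the myeloid lineage, had no counts in either library, and Spi1, which encodes PU.1 and whose value was seen before it was named, had 0 and 7.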

How the data were processed

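RNA was measured in 2 laser-captured areas of cerebellar granule layer, 1 Smart-seq library each. Expected counts in the deposited tables are estimated and may be fractional, per the file headers. Both TPM and FPKM were scaled by the authors for transcript length and depth, per the file headers. Deposited score columns give a lower and an upper TPM bound, at a level not stated, and the posterior SD of the count. A deposited percent column holds transcript shares. Per the deposited notes the build was mm10 with GENCODE M4. No aligner, counting program, filter or strand setting is named in the labels or headers used here.

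Spike-ins and 26248 numeric rows were left out of gene totals (2.78% and 3.40% of counts). Names and coordinates came from GENCODE M21 on GRCm38, the build of mm10, and 42462 of 43346 IDs matched without version. Crry, listed beside Cr1l, is another name of that gene and was not counted. Expected counts were rounded for the exact binomial test (scipy 1.17.1). The test was also run on simulated counts drawn as independent reads, which it assumes, so that run does not cover amplification. Alternatives used TMM factors (edgeR 4.0.16, R 4.3.3), median-of-ratios factors (DESeq2 1.42.0), totals without globin and mitochondrial genes, counts divided by 10, pseudocounts of 0.1 and 5 in place of 1, FPKM, other thresholds and 1 library at a time. Intervals and floors cover counting error only, since the files give no molecule counts.

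The 9 genes and the lists were chosen with earlier results of these data known. Named were the 9 genes, every ligand, and genes of the microglial, complement and Tyrobp lists without counts. The 3 highest were named of the complement, C1q-related, Tyrobp, purinergic, cathepsin, lysosomal membrane, activation, border macrophage and blood leukocyte lists. Of the microglial list, markers and the highest genes reported were named. The granule neuron, astrocyte, oligodendrocyte, endothelial, mural and red blood cell lists are given mainly as counts and sums, and their 3 highest were not named as a rule. Cldn5, Acta2 and Rgs5 were named from the vessel lists. Further marker genes were named where a result turns on them. Others (Ms4a7, Cd209f, Cfp, Serping1, C1ra, C4a, C4b, Spi1, Spp1, Gpnmb, Cybb and the activation genes without counts) were named after their values were seen. The values of 1 gene of the microglial list are not reported here.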

Additional observations from a re-analysis of the deposited data

How the results depend on the processing

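No paired analysis was possible because both libraries belong to 1 group. The 9 genes kept their direction under each scaling, pseudocount and unit tried, 7 higher in replicate 1 and 2 in replicate 2, and their median log2 difference ran from -0.33 to -0.25. With detection set at a TPM of at least 5, 4 of the 9 were detected in place of 8. The number beyond counting error was 7 under TMM, median-of-ratios and globin-free and mitochondria-free totals and without the count filter, and 0 with counts divided by 10, which by construction leaves fewer reads. The number at least 1.5-fold apart was 1 in place of 2 with a pseudocount of 5 and 1 with FPKM. In both settings Cx3cr1, a low gene, was the gene that fell short, at a log2 difference of 0.18 and 0.56. The summed TPM was 111 when rescaled without globin and mitochondrial genes, a step that raises every gene. With 1 library at a time it was 84.2 to 107, the C1qb to C1qa ratio 5.34 to 5.63, and the Cd68-203 share 0 to 58.7%. Depth limits Cx3cr1 and Cd68 most, at 18 and 27 counts in replicate 1.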

Other observations

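Genes that microglia raise when they turn from surveillance to activation were mostly at or near 0. So were many others: of all 43346 genes, 20800 had a summed count of at least 1, and the general myeloid gene Irf8 had none. The zeros alone therefore do not show the state of the microglia. Of 18 activation genes, 9 had no counts in either library: the cytokine genes Il1b and Tnf, the chemokine genes Ccl3 and Ccl4, the antigen presentation genes H2-Aa, H2-Ab1 and Cd74, and the receptors Clec7a and Itgax. The 4 detected are made by other brain cells as well. The lipid carrier gene Apoe had a TPM of 660 in replicate 1 and 640 in replicate 2, B2m, the light chain of class I antigen presentation, 207 and 192, and the tetraspanin gene Cd9 22.1 and 20.96. Beyond counting error 4 genes were higher in replicate 1 and 2 in replicate 2 (exact binomial, adjusted). Spp1, osteopontin, had 2 and 137 counts, while Gpnmb had 40 and 1 and Cybb 28 and 2, so the areas did not differ in 1 direction.

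Among genes related to C1q outside complement, the cerebellins of granule neurons were far above the complement chains. Cbln3, a cerebellin of these neurons, had a TPM of 200 and 211 and Cbln1 178 and 177, and C1qtnf4 had 104 and 111. Of the 10 genes of this list, 4 were detected.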
